A study of Mus musculus with 4 samples.

Results

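Chromogranin B, the product of Chgb, is an acidic protein that endocrine cells pack with their hormones into dense-core granules. The cells compared here were chosen by the amount of Chgb RNA that each held. For every cell, the Chgb count was divided by the total count of that cell and multiplied by 1000000, which gives counts per 1000000 counts (CPM). A cell with at least 10000 CPM was called Chgb-high and a cell with less than 2000 CPM Chgb-low. Of 290 cells, 129 were Chgb-high, 139 were Chgb-low and 22 lay between the limits and belonged to neither side, so the comparison holds 268 cells. Chgb itself chose the sides and is described, not tested.

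The cells were living (DAPI-negative) eYFP-positive cells from enteroids, closed epithelial cultures with crypts that are kept in Matrigel and fed R-spondin-1, EGF and noggin. The enteroids came from the small intestine of female CD1 mice that carried 1 Neurog3eYFP reporter allele and 1 unmarked allele (Neurog3eYFP/+), a genotype that both sides share. Cells were gated by the fluorescent protein and not by Neurog3 RNA, and the time since a cell switched the reporter on was not recorded. The 4 plates were duodenum replicate 1 from mice of 39 weeks, duodenum replicates 2 and 3 from mice of 12 weeks, and jejunum replicate 1 from mice of 12 weeks. The sources used here do not say whether the plates came from separate mice, so p-values measure the spread between these plates, which may be technical. Each plate gave both sides, and the order duodenum replicate 1, 2, 3 and jejunum replicate 1 is kept wherever 4 values follow each other.

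Neurog3 is the transcription factor that starts the endocrine program in the gut. Its descendants include enterochromaffin cells, which make serotonin from tryptophan with the enzyme encoded by Tph1, and cells that make peptide hormones such as cholecystokinin (Cck), GIP (Gip), glucagon-like peptides (Gcg) or ghrelin (Ghrl). Some cells that switch on Neurog3 become goblet or Paneth cells, the mucus and antimicrobial secretory cells of the same epithelium.

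Plates gave 26, 39, 27 and 37 Chgb-high cells and 44, 37, 39 and 19 Chgb-low cells. Chgb-high cells held a median of 62760.0 CPM of Chgb (range 10095 to 203752) and Chgb-low cells a median of 306 CPM (range 64.6 to 1712). The nearest cells inside the upper limit had 10095, 10182 and 10336 CPM, and those just outside it 9804, 8796 and 8424 CPM. At the lower limit, the nearest members had 1712, 1647 and 1509.7 CPM, and the nearest cells left out had 2198, 2544 and 3477 CPM. Plates held 23893272 to 46490618 counts. The median depth was 467824 counts and 4869 genes in Chgb-high cells against 374867 counts and 4195 genes in Chgb-low cells. The part of this gap in the results was not tested beyond a fit with every cell thinned to 100000 counts, which called 502 genes.

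**Figure D1:**
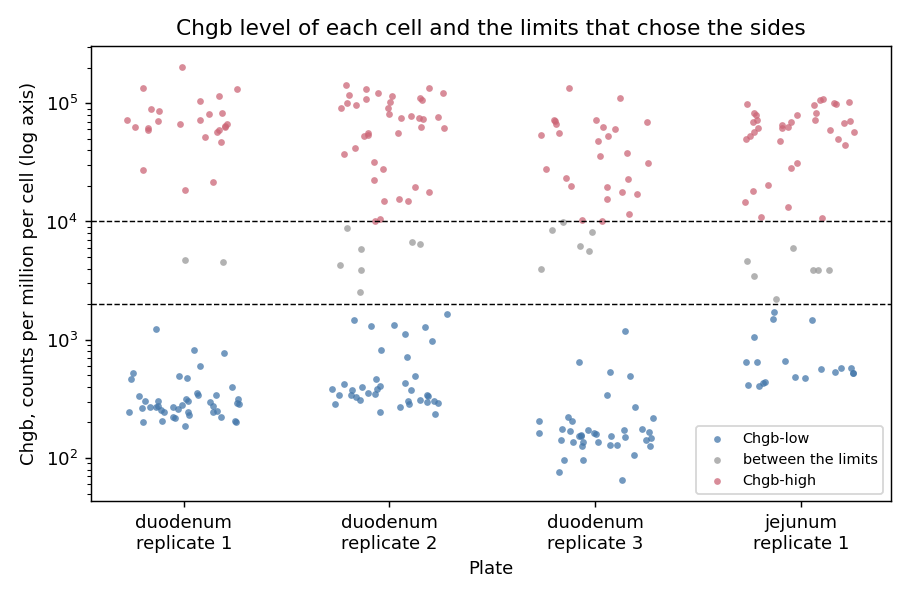
Chgb level of each of the 290 cells in CPM on a log axis, by plate, with the limits of 2000 and 10000 CPM as dashed lines. Blue points are the 139 Chgb-low cells, red points the 129 Chgb-high cells and grey points the 22 cells between the limits.

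Chgb-high cells differed from Chgb-low cells in 515 of 12440 genes tested, which is 4.14% of them. Higher in Chgb-high cells were 198 genes, 1.59% of those tested, 160 of them outside the gene lists used here; among the higher genes were Pappa2 and Afp and the serotonin, granule and excitability genes Tph1, Cplx1 and Trpa1. Lower were 317 genes, 2.55% of those tested, among them 78 of 80 genes for cytosolic ribosomal proteins and the goblet and Paneth genes Guca2a, Muc2 and Defa24. The higher genes moved further: their median log2 fold change was 3.73, against -1.90 for the lower genes, and 97 rose by at least 16-fold while 37 fell by at least 16-fold. Over all genes tested, the median log2 fold change was 0.04. For 508 of the 515 genes the side with the higher CPM was the same in all 4 plates. The test compared sides within plates and so favours genes whose plates agree, which makes this count no separate evidence.

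Each value behind these counts was a sum: raw counts were added over the cells of one side of one plate, which gave 8 sums, and the sides were compared within plates with the quasi-likelihood test of edgeR at a Benjamini-Hochberg adjusted p under 0.05. A log2 fold change is Chgb-high minus Chgb-low and is given ± a standard error derived from the fold change and the F statistic of that test. The test shares information on spread across genes, so this error is not the observed spread of a gene between the 4 plates. In such sums, more cells with a gene and more RNA per cell cannot be told apart, so numbers of cells stand beside the sums. Printed CPM are not scaled by TMM, whereas fitted changes are. The TMM factors were 1.07 to 1.20 for Chgb-high and 0.78 to 0.96 for Chgb-low sums. Fitted changes are therefore lower than the ratios of the printed CPM, which matters most for small changes. Every plate mattered to the count: without duodenum replicate 1, 2 or 3 or jejunum replicate 1, the test called 13, 11, 62 and 249 genes. Of 77 genes named here that passed, Tph1, Scn3a, Guca2a, Afp and Pappa2 also passed in each of these fits. When each cell counted equally (mean of the cell CPM, limma), 783 genes passed and 69.7% of them were higher in Chgb-high cells, against 38.4% with sums, and the median over all genes was 0.19; with DESeq2 on the sums 55.0% of 2544 genes were higher.

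**Figure D2:**
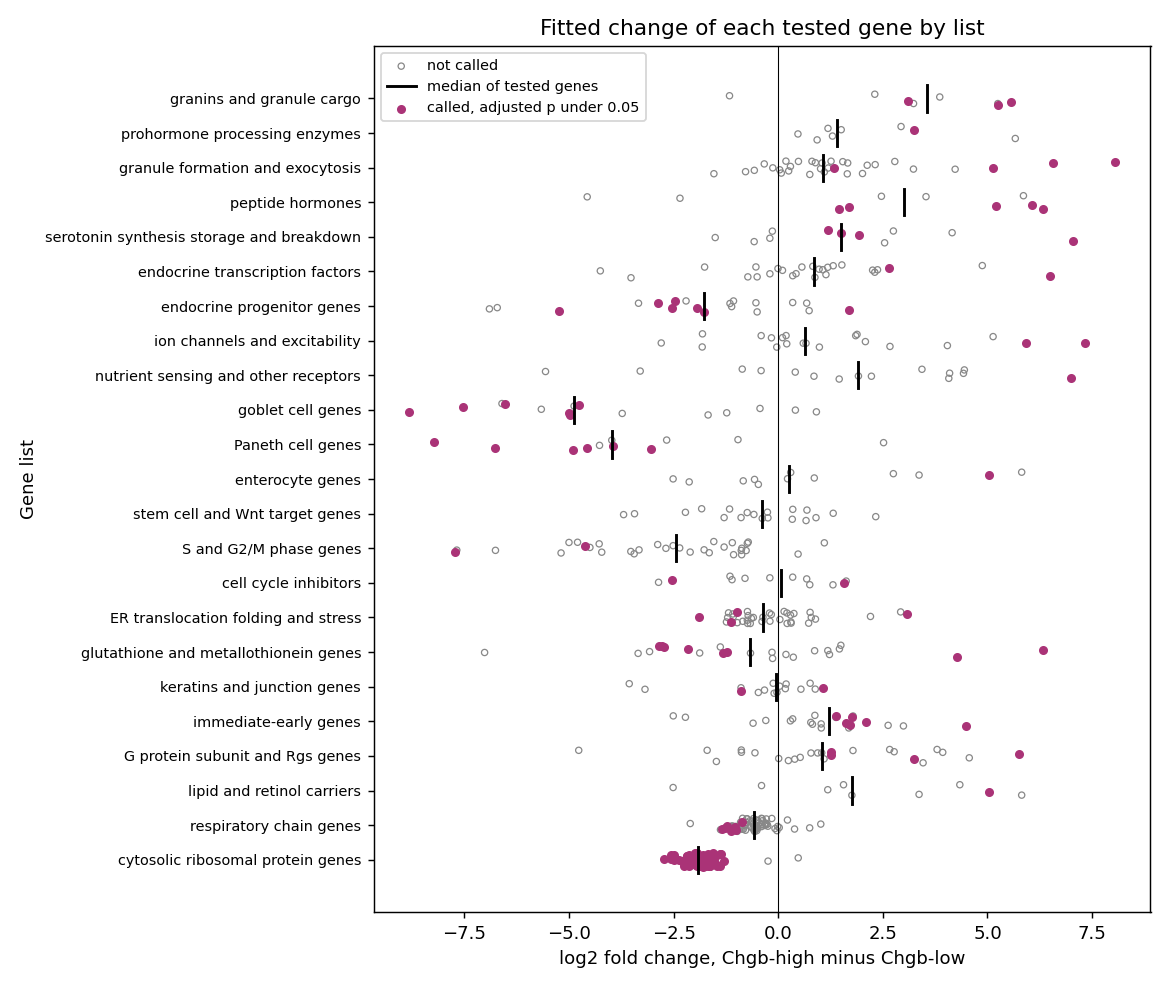
Fitted log2 fold change, Chgb-high minus Chgb-low, of each tested gene by gene list. Filled points passed at an adjusted p under 0.05, open points did not, and black bars are list medians; the 78 called ribosomal genes lie together left of 0, and the called goblet and Paneth genes spread furthest to the left.

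Of 11 genes of serotonin synthesis, storage and breakdown, 4 were higher in Chgb-high cells, 0 were lower and 7 did not pass. The shares over all genes tested were 1.59% higher and 2.55% lower. The list median was 1.50, and 4 of the genes that did not pass had fitted changes below 0. Tph1, the rate-limiting enzyme, had 1409.9, 1031, 1219 and 2575 CPM in the Chgb-high sums and 5.49, 4.63, 9.77 and 20.5 CPM in the Chgb-low sums. The sides were far apart in every plate (log2 fold change 7.03 ± 0.33, adjusted p = 0.00178). Tph1 (ENSMUSG00000040046) lies on chromosome 7 at 46644641 to 46672537 in GRCm38. Ddc, which makes serotonin from the product of Tph1, had 1293, 2097, 1094 and 3585 CPM against 427, 579, 243 and 927 CPM. All 4 plates were higher on the Chgb-high side, by a smaller factor than for Tph1 (log2 fold change 1.50 ± 0.16, adjusted p = 0.00913). Slc18a1, a transporter that loads monoamines into vesicles, changed by 1.94 ± 0.25 (adjusted p = 0.0149), and Qdpr, which regenerates the cofactor of Tph1, by 1.20 ± 0.22 (adjusted p = 0.0439). The 7 genes that did not pass include the reuptake transporter gene Slc6a4 (-0.20) and Slc18a2 (4.16).

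The split for Tph1 could also be seen in single cells. Of 129 Chgb-high cells, 88 held at least 500 CPM of Tph1 (20, 21, 18 and 29 per plate), and 0 of 139 Chgb-low cells and 0 of 22 cells between the limits did. If cells were independent draws, 0 of 139 would allow a share of up to 2.16% (3 divided by 139). Cells of the same plate may not be independent, so this bound covers counting error only. A count of 1 separated the sides poorly: 96.9% of Chgb-high and 81.3% of Chgb-low cells had at least 1 Tph1 count, at median levels of 1123 and 5.2 CPM. In the 61 Chgb-low cells rich in goblet and Paneth RNA, which should lack Tph1, it was 80.3%, at a median depth of 402680 counts. Thinned to 100000 counts per cell, the shares of Chgb-high and Chgb-low cells were 89.9% and 48.9%. The Chgb-low sums held 0.389, 0.449, 0.801 and 0.795% of the Tph1 level of the Chgb-high sums of their plate. For Chgb, which chose the sides and so is low in Chgb-low cells by the rule, the same ratios were 0.461, 0.681, 0.452 and 1.1%. For Lmx1a they were 0.458, 0.594, 0.858 and 2.14%. A low level of Tph1 and Lmx1a in the Chgb-low sums of each plate is the measured fact, with unlike ratios in jejunum replicate 1 (0.795 and 2.14%). Carry-over between wells was not tested.

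Tac1, which encodes substance P and is known in enterochromaffin cells, followed the same pattern, with 2383, 3638, 4264 and 4974 CPM in Chgb-high and 59.9, 18.5, 28.8 and 47.7 CPM in Chgb-low sums (log2 fold change 6.33 ± 0.45, adjusted p = 0.00556). All 33 cells with at least 5000 CPM of Tac1 were Chgb-high, and 29 of them also held at least 500 CPM of Tph1. Lmx1a, a transcription factor of serotonin-producing cells, had 584, 779, 614 and 633 CPM against 2.67, 4.63, 5.27 and 13.6 CPM (log2 fold change 6.49 ± 0.46, adjusted p = 0.00556). Fev, another such factor, had 2249, 1959.8, 1457 and 1864 CPM against 168, 444, 117 and 309 CPM (log2 fold change 2.64 ± 0.33, adjusted p = 0.0138). Of 26 endocrine transcription factor genes tested, these 2 were higher and 0 were lower, and the list median was 0.85. Over all genes tested, 1.59% were higher. Neurog3 itself did not pass, with 21.2, 112, 50.4 and 13.3 CPM against 8.96, 206, 35.6 and 33.6 CPM (log2 fold change -0.53 ± 0.52, adjusted p = 0.608). Rfx6, which acts after Neurog3, was higher on the Chgb-high side of each plate but did not pass (log2 fold change 0.88 ± 0.42, adjusted p = 0.304).

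The other granin and granule genes were higher in Chgb-high cells or did not pass, and none was lower. Among 8 granin and granule cargo genes, 3 were higher, against 1.59% of all genes tested, and the median was 3.55. Chga, the sister granin, had 1551, 6992, 2629 and 9223 CPM in Chgb-high and 164, 774, 98.3 and 1246 CPM in Chgb-low sums, without overlap (log2 fold change 3.11 ± 0.31, adjusted p = 0.00854). Scg2, encoding secretogranin II, had 186, 665, 382 and 500.2 CPM against 1.16, 20.8, 2 and 79.9 CPM (log2 fold change 5.25 ± 0.98, adjusted p = 0.0451). In every plate the cells between the limits held more Scg2 than either side, with 319, 2009, 1984 and 858 CPM. The third called member, Pcsk1n, is named after its values were seen because it did not have 1 sign in all 4 plates (log2 fold change 5.56 ± 0.68, adjusted p = 0.0206). The 5 others did not pass; Scg3, Scg5, Vgf and Resp18 had log2 fold changes of 3.23, 2.31, 3.86 and 5.25, and Nucb2 -1.16.

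Both Chgb and Scg2 have a cyclic AMP response element, the letters TGACGTCA, shortly before the start of transcription in the RefSeq promoters of build GRCm38.p6. They are shown because the granin list is the one that contains the gene that split the cells; Pcsk1, whose enzyme cuts prohormones, and the immediate-early genes Dusp1 and Btg2 hold the same letters. Capitals mark the element, and each stretch is 30 bases, written 5′ to 3′ on the strand of the gene.
Chgb: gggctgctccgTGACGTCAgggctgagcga
Scg2: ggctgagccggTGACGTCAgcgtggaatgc
Pcsk1: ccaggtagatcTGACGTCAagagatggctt
Dusp1: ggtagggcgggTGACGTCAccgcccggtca
Btg2: gttcccaataaTGACGTCAgtgagcgatga
The Chgb stretch is chr2:132781559-132781588 on the plus strand, with the element at -72 to -65 from the start, and the Scg2 stretch is chr1:79440076-79440105 on the minus strand, with the element at -68 to -61. Those of Pcsk1 and Dusp1 are chr13:75089768-75089797 on the plus strand (-78 to -71) and chr17:26508597-26508626 on the minus strand (-143 to -136), and that of Btg2 is chr1:134079303-134079332 on the minus strand (-166 to -159). Pcsk1 did not pass the test (log2 fold change 1.19 ± 0.38, adjusted p = 0.159), nor did Btg2 (log2 fold change 0.35), whereas Dusp1 did (log2 fold change 1.39 ± 0.25, adjusted p = 0.0406). Across promoters of 300 bases, TGACGTCA, which reads the same on both strands, was found in 4.83% of genes called higher (7 of 145 with a promoter in the table), 5.35% of genes called lower (10 of 187), 3.83% of all tested genes (328 of 8557) and 2.03% of all 27025 promoters. Its share was 11.8% on the immediate-early list (2 of 17) and 10.2% on the list of ribosomal protein genes (6 of 59), whose called members were lower in Chgb-high cells. Among tested genes of the granule and processing lists, which leave out Chgb, it was 5.88% (2 of 34). These letters are a description of the sequence only.

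Of 8 prohormone processing genes tested, 1 was higher, Pcsk7, a proprotein convertase (log2 fold change 3.23 ± 0.62, adjusted p = 0.0472), and 7 did not pass. Cpe, the carboxypeptidase that trims cut prohormones, and Pam, which amidates peptides, had log2 fold changes of 1.51 ± 0.30 (adjusted p = 0.0516) and 2.94 ± 0.61 (adjusted p = 0.0585). All 8 fitted changes were above 0, with a median of 1.40. The 1 call stands beside 1.59% of all genes tested that were higher.

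Of 32 genes of granule formation and exocytosis, 4 were higher and 0 lower, against 1.59 and 2.55% of all genes tested. The list median was 1.08. Rab3b and Rab3c encode small GTPases on secretory granules. Rab3c had 262, 484, 219 and 461 CPM in Chgb-high and 6.28, 6.92, 13.3 and 5.16 CPM in Chgb-low sums (log2 fold change 5.13 ± 0.55, adjusted p = 0.00913), and Rab3b changed by 6.57 ± 0.66 (adjusted p = 0.00853). Complexins clamp and trigger vesicle fusion. Cplx1 had 2.11, 93.7, 84.3 and 131 CPM against 0, 0.293, 0.0454 and 0.906 CPM, so that duodenum replicate 1 stood far below the other plates on the Chgb-high side (log2 fold change 8.05 ± 0.85, adjusted p = 0.00913). Cplx2 was present on both sides, at 1011, 668, 385 and 453 CPM and 323, 165, 81 and 225 CPM (log2 fold change 1.34 ± 0.22, adjusted p = 0.033). The 28 others did not pass, among them the fusion genes Snap25 (2.13), Stx1a (1.05) and Vamp2 (1.66).

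Excitability genes gave 2 of 20 higher and 0 lower, against 1.59% of all genes tested that were higher. Scn3a, a subunit of voltage-gated sodium channels, had 1250.0, 1026, 832 and 892 CPM against 14, 9.55, 15.1 and 11.9 CPM (log2 fold change 5.92 ± 0.29, adjusted p = 0.00178). Trpa1, an irritant-sensing cation channel of enterochromaffin cells, had 29.8, 219, 159 and 109.9 CPM against 0.144, 0.879, 0.591 and 0.725 CPM (log2 fold change 7.33 ± 0.41, adjusted p = 0.00265). Each Chgb-high value exceeded each Chgb-low value for both genes. At least 500 CPM of Trpa1 was found in 10 of 129 Chgb-high cells (0, 5, 4 and 1 per plate) and 0 of 139 Chgb-low cells. Of 15 nutrient-sensing and other receptor genes, 1 was higher: Olfr558, named after its values were seen (log2 fold change 7.01 ± 0.80, adjusted p = 0.0168). Ffar2, a receptor for short-chain fatty acids, had 589.6, 422, 226 and 564 CPM against 161, 219, 87.9 and 318 CPM and did not pass (log2 fold change 0.86 ± 0.24, adjusted p = 0.124), nor did Gfra3 (log2 fold change 1.46 ± 0.68, adjusted p = 0.294).

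Of 25 genes for G protein subunits and their regulators, 4 were higher and 0 lower, against 1.59 and 2.55% of all genes tested. The list median was 1.04. Rgs2 and Rgs4, which shorten G protein signals, changed by 3.24 ± 0.43 (adjusted p = 0.0162) and 5.76 ± 0.98 (adjusted p = 0.0351). Gnai2, an inhibitory alpha subunit, had 422, 420.2, 242 and 376 CPM against 152, 104, 60.4 and 172 CPM (log2 fold change 1.26 ± 0.21, adjusted p = 0.0326), and Gng12, a gamma subunit, changed by 1.25 ± 0.21 (adjusted p = 0.0344).

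Peptide hormones divided among the sides and the cells between them. Of 10 peptide hormone genes tested, 5 were higher (Tac1, Ucn3, Gcg, Cck and Sct) and 0 lower, with a median of 3.0. The shares over all genes tested were 1.59% higher and 2.55% lower. Cck had 88.6, 3096, 929 and 6093 CPM in Chgb-high and 24.2, 1339, 109 and 1329.8 CPM in Chgb-low sums (log2 fold change 1.70 ± 0.31, adjusted p = 0.0406). The cells between the limits held 1.82, 32045, 14794 and 8706 CPM of Cck, more than either side in the last 3 plates. Sct, encoding secretin, had 314, 1289, 303 and 2485 CPM against 101, 327, 87.5 and 650.3 CPM (log2 fold change 1.44 ± 0.17, adjusted p = 0.0114). Ucn3, encoding urocortin 3, had 28.3, 467, 107 and 54.2 CPM against 0.578, 4.51, 0.409 and 1.18 CPM (log2 fold change 6.06 ± 0.54, adjusted p = 0.00743).

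Gcg had 0, 42.8, 3739 and 6419 CPM in Chgb-high and 0, 3.63, 26.9 and 103 CPM in Chgb-low sums (log2 fold change 5.21 ± 0.81, adjusted p = 0.0401). Its difference rested on 3 plates, since duodenum replicate 1 had no Gcg count on either side. Gip had 0, 3583, 22.6 and 22377 CPM against 0, 10.3, 33.3 and 146 CPM and did not pass (log2 fold change 5.86 ± 2.77, adjusted p = 0.311). Pyy, encoding peptide YY, was at 0 on both sides of 2 plates and did not pass (log2 fold change 3.53 ± 1.89, adjusted p = 0.38). Sst and Nts were below the filter on low counts; Sst had 5601 CPM in the Chgb-high sum of duodenum replicate 2, against 275 CPM in its Chgb-low sum, and 0 in all sums of the other plates.

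Ghrl had 2.21, 226, 1599 and 74.4 CPM in Chgb-high and 512, 1767, 17.2 and 5487 CPM in Chgb-low sums, so that 3 plates were lower and duodenum replicate 3 higher on the Chgb-high side, and it did not pass (log2 fold change -4.56 ± 2.73, adjusted p = 0.396). Of 10 cells with at least 5000 CPM of Ghrl, 8 were Chgb-low, 2 Chgb-high and 0 between the limits. Chgb in these 10 cells had a median of 670.1 CPM. By contrast, cells with at least 5000 CPM of Gip fell as 7 Chgb-high, 3 between and 0 Chgb-low, those of Gcg as 5, 4 and 0, and those of Cck as 10, 7 and 2. Median Chgb was 18684 CPM in the 10 Gip cells, 10666 CPM in the 9 Gcg cells and 10095 CPM in the 19 Cck cells, against 62760.0 CPM over all Chgb-high cells. A cell with at least 5000 CPM of Cck, Gip, Gcg, Ghrl, Sst, Nts or Pyy is called a peptide hormone cell from here on. Of 129 Chgb-high cells, 0 were peptide hormone cells that also held 500 CPM of Tph1. Tac1 and Sct are not part of that definition. Cells with 5000 CPM of Tac1 mostly held Tph1, as given above, and of 5 Chgb-high cells with 5000 CPM of Sct, 0 held 500 CPM of Tph1, 4 were peptide hormone cells and 1 was neither.

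**Figure D3:**
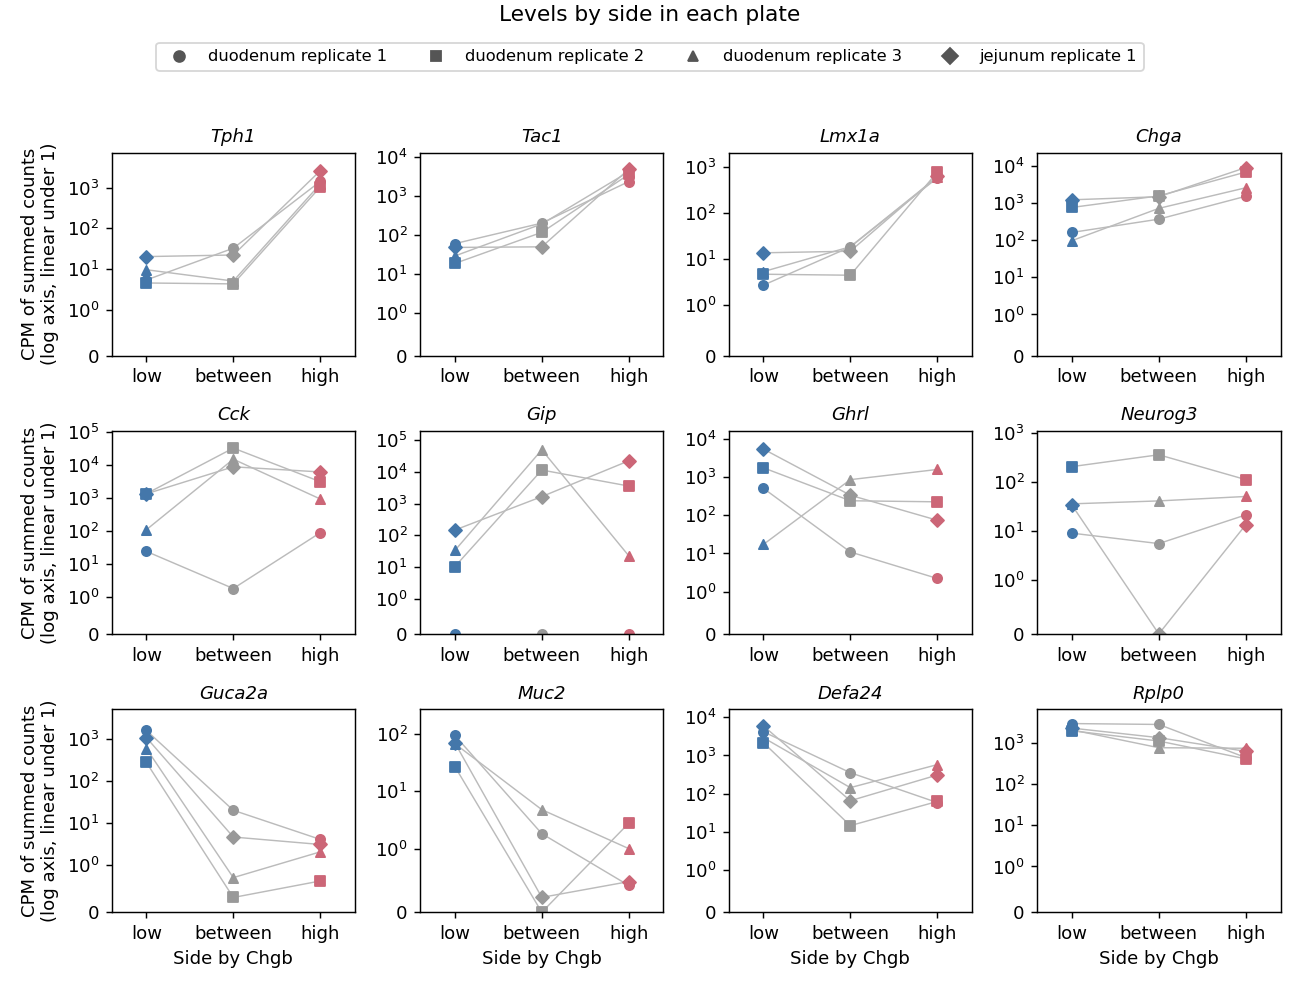
CPM of the summed counts of Chgb-low cells, cells between the limits and Chgb-high cells for 12 genes, on an axis that is logarithmic above 1 and linear under it, with 1 marker shape per plate joined by a grey line. Tph1, Tac1 and Lmx1a are highest on the right in every plate, Cck and Gip peak in the middle in several plates, and Guca2a and Muc2 are high on the left.

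Within the Chgb-high side, cells were described as 3 sorts. The 88 Tph1 cells held 2726, 4986, 5641 and 6138 CPM of Tac1 and 618, 1145, 833 and 824 CPM of Lmx1a. The 15 peptide hormone cells came from the last 3 plates (9, 2 and 4 cells) and held 4.86, 5.13 and 9.56 CPM of Lmx1a and 1.02, 0 and 1.04 CPM of Trpa1, near the levels of the Chgb-low sums. The 26 remaining Chgb-high cells held 118, 169.9, 89.3 and 256 CPM of Tph1, which is below the Tph1 cells by definition. Their Lmx1a was 458, 505, 291 and 207 CPM, between the other sorts in the last 3 plates. In duodenum replicate 1, which had no Chgb-high peptide hormone cells, it was below the Tph1 cells. Scn3a was found in all 3, at 1312, 1459, 1073 and 1117 CPM in Tph1 cells, 204, 226 and 114 CPM in peptide hormone cells and 1024, 592, 461 and 447 CPM in the rest.

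Without the 88 Tph1 cells the test called 13 genes (6 higher and 7 lower), from 41 Chgb-high cells, and among the named genes only Scn3a, Tac1, Guca2a and Guca2b still passed. Without the 15 peptide hormone cells it called 500 genes, and 67 of the 77 named genes that passed still did so. Among genes that did not choose these cells, Scg2 had a log2 fold change of 2.55 in place of 5.25 and did not pass. Rgs4 (2.13 in place of 5.76), Sct (0.69 in place of 1.44) and Rbp2 also lost the call, with their direction kept. So did Gadd45g, Krt18, Cdkn1a and Manf, which stayed close to the threshold.

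Of 15 goblet cell genes tested, 6 were lower in Chgb-high cells, 0 higher and 9 did not pass, with a list median of -4.88. Of 11 Paneth cell genes, 6 were lower, 0 higher and 5 did not pass, with a median of -3.98. The share over all genes tested was 2.55% lower. Guca2a, encoding guanylin, had 4.11, 0.666, 2.08 and 3.11 CPM in Chgb-high and 1555, 273, 581 and 1056 CPM in Chgb-low sums. It had the smallest adjusted p of all genes (log2 fold change -8.82 ± 0.24, adjusted p = 0.000257). Guca2a (ENSMUSG00000023247) lies on chromosome 4 at 119637704 to 119639471 in GRCm38. Muc2, the main mucin of the gut, had 0.421, 2.77, 1 and 0.481 CPM against 94.6, 27.1, 67.9 and 70.3 CPM (log2 fold change -6.52 ± 0.99, adjusted p = 0.0253). Spink4, a protease inhibitor of goblet cells, changed by -4.99 ± 0.77 (adjusted p = 0.0266), and Ccl9, a chemokine, by -7.52 ± 1.36 (adjusted p = 0.0406). Of the antimicrobial genes, Lyz1 (lysozyme) had 146, 157, 77.2 and 79.8 CPM against 1501, 428, 1085 and 3577 CPM (log2 fold change -3.94 ± 0.68, adjusted p = 0.0363). Ang4 changed by -4.57 ± 0.45 (adjusted p = 0.00793), Defa24 by -4.90 ± 0.67 (adjusted p = 0.017) and Defa17 by -6.76 ± 0.72 (adjusted p = 0.00913). Defensin genes are near-identical copies, and how reads were divided among them is uncertain.

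Chgb-low cells held these genes at unequal levels. Summed over both lists, at least 20000 CPM was reached by 62 of 139 Chgb-low cells and 1 of 129 Chgb-high cells, and 61 of the 62 were not peptide hormone cells. These 61 are called rich in goblet and Paneth RNA here, and the 69 other Chgb-low cells were neither these nor peptide hormone cells. Over the 4 plates, the 19 goblet genes in the table summed to 1799.8 to 2502 CPM in Chgb-high and 19190 to 28388 CPM in Chgb-low sums, and the 18 Paneth genes to 663 to 1761 and 4552 to 19688 CPM. When Chgb-low cells with at least 20000 CPM of both lists were left out (77 remained; this limit was added once values were known), 241 genes were called. With a limit of 5000 CPM, which left 27 Chgb-low cells (4, 4, 15 and 4 per plate), 98 genes were called. Goblet and Paneth genes chose the cells left out, so their own values in these fits are set by that choice and are not read. Of the 77 named genes that passed, goblet and Paneth genes included, 19 still passed with the limit of 5000 CPM. Among genes that did not choose the cells, Tph1 (7.61), Lmx1a (6.70), Chga (2.63), Scn3a (6.31), Smarcd2 (-2.59) and Rplp0 (-2.11) stayed past the threshold in that fit. Others lost the call there with their direction kept, among them Trpa1 (8.57), Cplx1 (9.19), Ddc (1.81), Fosb (5.35) and Mt2 (-2.03).

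Other epithelial types gave fewer calls, beside 1.59% higher and 2.55% lower over all genes tested. Of 14 tuft cell genes, 9 were in the table and 0 passed the filter on low counts, with sums of 4.99 to 9.75 CPM in Chgb-high and 0 to 1.82 CPM in Chgb-low cells. Of 12 enterocyte genes, 1 was higher, Rbp2, which carries retinol; it had 1.89, 48.3, 53.1 and 147 CPM against 0.144, 0.645, 2.5 and 1.09 CPM (log2 fold change 5.04 ± 0.87, adjusted p = 0.0376). Of 19 stem cell and Wnt target genes, 0 passed in either direction, with a median of -0.38. Ephb3 and Prom1, the most abundant of them, had log2 fold changes of -0.58 ± 0.44 (adjusted p = 0.505) and -0.89 ± 0.31 (adjusted p = 0.187).

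Of 19 endocrine progenitor genes, 6 were lower in Chgb-high cells, 1, Cck, was higher and 12 did not pass, with a median of -1.78. The shares over all genes tested were 2.55% lower and 1.59% higher. Smarcd2, a subunit of chromatin remodelling complexes, had 221, 93.6, 171 and 191 CPM in Chgb-high and 962, 724, 737 and 1254 CPM in Chgb-low sums, without overlap (log2 fold change -2.87 ± 0.22, adjusted p = 0.00637). Gadd45g, a stress and growth arrest gene, changed by -2.48 ± 0.42 (adjusted p = 0.036), and Tead2, a transcription factor of the Hippo pathway, by -5.23 ± 1.00 (adjusted p = 0.0475). The other lower genes were Sox4, Hes6 and Cdkn1a. Neurog3 and its early targets Dll1, Mfng and Pax4 did not pass, with log2 fold changes of -0.53, -6.90, -2.20 and -0.50. Smarcd2 was at 782, 859.5, 851 and 950.1 CPM in Chgb-low cells rich in goblet and Paneth RNA and at 1311, 695, 674 and 1715 CPM in the other Chgb-low cells without a peptide hormone, so that its high level was found in both.

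Of 12 cell cycle inhibitors tested, 1 was lower and 1 higher, beside 2.55% lower and 1.59% higher over all genes tested. Cdkn1a, encoding p21, had 278, 643, 133 and 163 CPM against 976, 1702, 375 and 2776 CPM (log2 fold change -2.55 ± 0.47, adjusted p = 0.0439). Cdkn1b, encoding p27, had 454, 272, 155 and 169.6 CPM against 98.7, 74.2, 50 and 38.6 CPM (log2 fold change 1.57 ± 0.24, adjusted p = 0.0266). The 10 other inhibitors tested did not pass. Of 32 genes of S and G2/M phase, 2 were lower and 0 higher, with a median of -2.43, against 2.55% of all genes tested that were lower. Both sides held little of them, 206 to 603 CPM summed in Chgb-high and 404 to 1371 CPM in Chgb-low cells. Ube2c, which helps cells leave mitosis, had 0.737, 15.1, 38.9 and 2.53 CPM against 78, 160.0, 285 and 58.2 CPM (log2 fold change -4.61 ± 0.67, adjusted p = 0.0211).

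Of 80 cytosolic ribosomal protein genes, 78 were lower in Chgb-high cells and 0 higher, and 2 did not pass. The fitted change was below 0 for 79 of them and above 0 for 1, with a list median of -1.92, against 0.04 for all genes. Rplp0, of the ribosomal stalk, had 443, 412, 744 and 627 CPM in Chgb-high and 2964, 1980.2, 2085 and 2298 CPM in Chgb-low sums (log2 fold change -2.48 ± 0.23, adjusted p = 0.00743). Rpl12 had 816, 1494, 3652 and 1640.3 CPM against 5256, 8425, 10512 and 6299 CPM (log2 fold change -2.56 ± 0.23, adjusted p = 0.00743). For both genes the highest Chgb-high plate, duodenum replicate 3, stayed below the lowest Chgb-low plate. Rps4x and Rpl39 changed by -2.55 ± 0.22 (adjusted p = 0.00743) and -2.73 ± 0.28 (adjusted p = 0.00908). Pseudogenes made up 68 of the 317 lower genes, and since processed copies of ribosomal protein genes share reads with them, how those reads were counted is uncertain.

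In single cells, the 80 genes took a median of 8.50% of all counts in Chgb-high cells (range 2.30 to 27.4%) and 26.7% in Chgb-low cells (7.53 to 48.1%), with 14.4% in the cells between. Plate medians were 6.15, 7.82, 13.5 and 8.79% against 23.6, 30.1, 32.6 and 24.2%, so that the sides were apart in each plate while single cells overlapped. The share was 8.41% in Tph1 cells, 7.82% in peptide hormone cells and 11.0% in the other Chgb-high cells. On the Chgb-low side it was 26.4% in cells rich in goblet and Paneth RNA, 29.4% in the other cells and 12.0% in the 9 peptide hormone cells, 8 of which were Ghrl cells. The mitochondrially encoded genes moved with it, at a median of 3.99% of counts in Chgb-high and 7.47% in Chgb-low cells. Depth moved the other way, at a median of 467824 counts in Chgb-high and 374867 in Chgb-low cells. The part of mitochondrial share in the result was not tested, nor was that of depth beyond the fit with thinned cells. The list kept 78 calls with DESeq2, with other size factors and with each cell weighted equally, and 72 without the Chgb-low cells at 20000 CPM of goblet and Paneth RNA. Without duodenum replicate 1, 2 or 3 or jejunum replicate 1 it gave 0, 0, 11 and 76 calls, and without the Tph1 cells 0, at list medians of -1.79, -1.77, -1.94, -2.01 and -1.65.

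**Figure D4:**
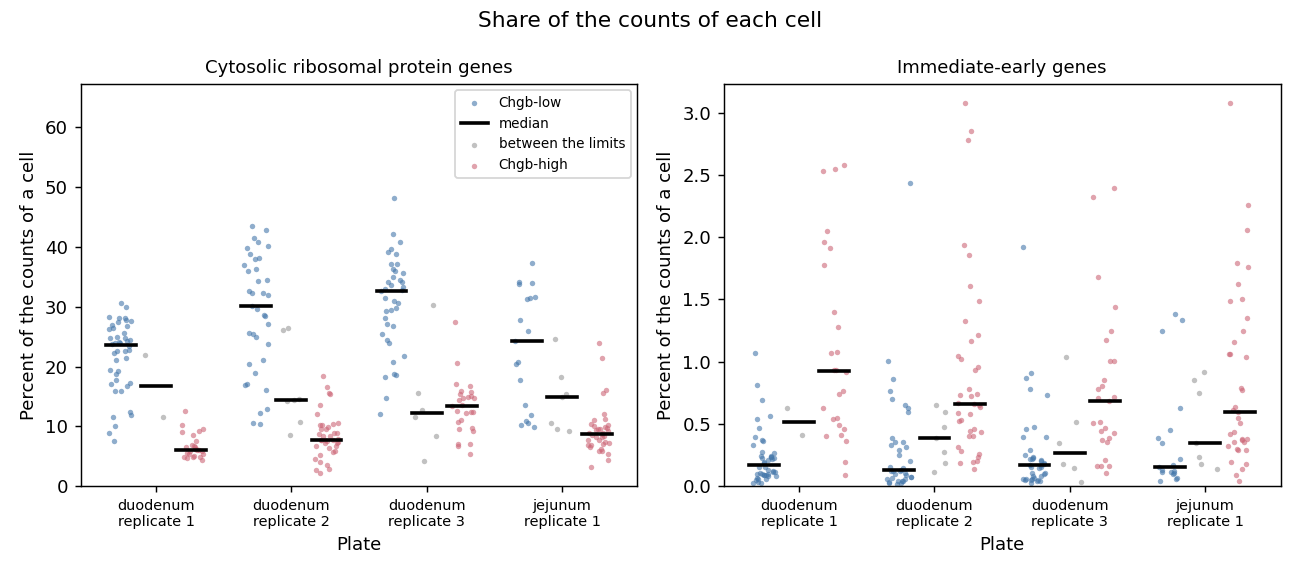
Percent of the counts of each cell taken by 80 cytosolic ribosomal protein genes (left) and 22 immediate-early genes (right), by plate and side; points are cells and black bars medians. Chgb-low cells sit higher for ribosomal genes in each plate (medians 23.6 to 32.6% against 6.15 to 13.5%), and Chgb-high cells sit higher for immediate-early genes.

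Immediate-early genes, which cells switch on quickly and briefly after a stimulus, gave 6 of 22 higher in Chgb-high cells and 0 lower. The list median was 1.21, and 1.59% of all genes tested were higher. Fosb had 392, 715, 607 and 413 CPM in Chgb-high and 59.9, 99.2, 189 and 63 CPM in Chgb-low sums (log2 fold change 2.10 ± 0.30, adjusted p = 0.0193). Jun had 2349, 1104, 1239 and 1357 CPM against 267, 279, 424 and 393 CPM (log2 fold change 1.71 ± 0.32, adjusted p = 0.0465). Nr4a1, a nuclear receptor, had 248, 79.3, 242 and 139 CPM against 4.04, 5.45, 20.4 and 1.72 CPM (log2 fold change 4.50 ± 0.70, adjusted p = 0.0266), and Klf6 changed by 1.76 ± 0.19 (adjusted p = 0.00913). The other called genes were Fos (1.62) and Dusp1 (1.39). The list took a median of 0.667% of counts in Chgb-high and 0.156% in Chgb-low cells, and 0.631% in the 9 Chgb-low cells with a peptide hormone. Without duodenum replicate 1, 2 or 3 or jejunum replicate 1 it gave 0, 0, 1 and 2 calls, and 1 without the Chgb-low cells at 20000 CPM of goblet and Paneth RNA.

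Stress and detoxification genes were mixed. Of 23 glutathione and metallothionein genes, 6 were lower and 2 higher, against 2.55 and 1.59% of all genes tested. The metallothionein gene Mt1 had 227, 265, 446 and 506 CPM against 1169.7, 2577, 1271 and 2695 CPM (log2 fold change -2.78 ± 0.30, adjusted p = 0.00931), and Mt2 changed by -2.86 ± 0.38 (adjusted p = 0.0157). Gstm1 and Gstt1 encode glutathione transferases and moved in opposite directions. Gstm1 had 60.4, 43.9, 187 and 188 CPM against 411, 492, 699.8 and 424 CPM (log2 fold change -2.73 ± 0.44, adjusted p = 0.0295), and Gstt1 554, 1041, 479 and 1126 CPM against 19.5, 42.1, 40.1 and 22.7 CPM (log2 fold change 4.27 ± 0.43, adjusted p = 0.00868). Gstt1 was at 570.1, 1534, 691 and 1466 CPM in Tph1 cells and 84.7, 13.3 and 23.7 CPM in the peptide hormone cells of the last 3 plates.

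Of 37 genes of the endoplasmic reticulum, 3 were lower and 1 higher, against 2.55 and 1.59% of all genes tested. The list median was -0.36. Sec11c, of the signal peptidase, had 141, 129, 184 and 75.5 CPM against 428, 379.7, 453 and 216 CPM (log2 fold change -1.89 ± 0.17, adjusted p = 0.00743). Manf and Ssr2 changed by -1.13 ± 0.22 (adjusted p = 0.0491) and -0.98 ± 0.17 (adjusted p = 0.0398). Atf6, a sensor of unfolded proteins, had 122, 878, 139 and 827 CPM against 25.8, 27.1, 23.4 and 49.7 CPM (log2 fold change 3.07 ± 0.55, adjusted p = 0.0406). Of 74 respiratory chain genes, 7 were lower and 0 higher, with a median of -0.59, beside 2.55% lower over all genes tested. Among them, Uqcrh had 643, 1065, 1229 and 1324 CPM against 1225, 1818, 2002 and 1929 CPM (log2 fold change -1.13 ± 0.16, adjusted p = 0.0209), and Ndufa6, Ndufb3 and Cox7b changed by -1.23 ± 0.17, -1.34 ± 0.20 and -1.28 ± 0.23.

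Of 16 keratin and junction genes, 1 was lower, Krt18 (log2 fold change -0.88 ± 0.15, adjusted p = 0.0395), and 1 was higher, Cldn4 (log2 fold change 1.07 ± 0.16, adjusted p = 0.0263). The shares over all genes tested were 2.55% lower and 1.59% higher. Krt18 had 488, 689, 744 and 772 CPM in Chgb-high and 778, 884, 999 and 1072 CPM in Chgb-low sums. These unscaled CPM differ by less than the fitted change. Of 9 lipid and retinol carrier genes, Rbp2 alone passed.

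Outside the lists, 160 genes were higher and 202 lower. The 8 largest rises among genes of at least 50 CPM were those of Ceacam20, Pappa2, Afp, Ramp3, Ablim1, 4930539E08Rik, Cwh43 and Adcy1, with log2 fold changes of 7.08 to 7.64. Ceacam20, Ramp3, Ablim1, 4930539E08Rik, Cwh43 and Adcy1 had only 27 to 69 counts over all Chgb-low sums. The size and order of their changes thus rest on values near 0. Pappa2, a protease that cuts binding proteins of insulin-like growth factors, had 608, 243, 515 and 842 CPM against 3.61, 1.05, 1.32 and 3.99 CPM (log2 fold change 7.49 ± 0.29, adjusted p = 0.00117). Afp, encoding alpha-fetoprotein, had 42.3, 3609.5, 105 and 3109.7 CPM against 0.217, 9.79, 0.455 and 22.4 CPM (log2 fold change 7.39 ± 0.32, adjusted p = 0.00155). Its Chgb-high level differed widely between plates, while the Chgb-low sums held 0.512, 0.271, 0.435 and 0.719% of it. Ramp3, a partner of calcitonin-family receptors, had 81.6, 90.4, 92.2 and 236 CPM against 0.217, 0.41, 0.455 and 1.63 CPM (log2 fold change 7.32 ± 0.46, adjusted p = 0.00409). Pappa2 was at 656, 376, 798 and 1099 CPM in Tph1 cells and 1.28, 0 and 2.91 CPM in the peptide hormone cells of the last 3 plates.

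The 8 largest falls outside the lists were those of Slc39a2, Ifitm1, Rnase1, Tmem44, Guca2b, Agpat4, Tspan8 and Ifitm3, with log2 fold changes of -9.58 to -4.14. Slc39a2, a zinc transporter, had 0, 0.0555, 0.385 and 0.128 CPM in Chgb-high and 53.5, 117, 61.1 and 77.3 CPM in Chgb-low sums (log2 fold change -9.58 ± 0.90, adjusted p = 0.00743). Guca2b, encoding uroguanylin, had 12.4, 17.2, 3.31 and 21.6 CPM against 1249, 277, 208 and 314 CPM (log2 fold change -5.49 ± 0.65, adjusted p = 0.0121). Ifitm3, an interferon-induced membrane protein, had 36.4, 54.9, 163 and 50 CPM against 919, 966, 897 and 653 CPM (log2 fold change -4.14 ± 0.38, adjusted p = 0.00743). In Chgb-low cells, Ifitm3 was at 893, 1257, 849 and 1020.4 CPM where goblet and Paneth RNA was rich and at 985, 857, 924 and 367 CPM in the other cells without a peptide hormone.

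The 22 cells between the limits, which the test did not use, did not lie between the sides for every gene. Of the 515 called genes, their sum lay between both sides for 274, 352, 213 and 345 genes in the 4 plates, which held 2, 7, 6 and 7 such cells, and for 76 genes in all 4 plates. Of these cells, 9 were peptide hormone cells and 0 held 500 CPM of Tph1. If cells were independent draws, 0 of 22 would allow up to 13.6%. Their sums held 32.8, 4.4, 5.16 and 22.4 CPM of Tph1 and 18.2, 4.4, 18.4 and 14.7 CPM of Lmx1a, near the Chgb-low sums, but 2621, 2279.8, 835 and 1506 CPM of Fev, near the Chgb-high sums. Their Gip stood at 0, 11463, 49661 and 1662 CPM and their Gcg at 0, 3574, 6279 and 18669 CPM.

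The contrast was set against the tissue of the plate. In jejunum replicate 1, 37 of 63 cells were Chgb-high (58.7%), against 36.1, 47.0 and 37.5% in the duodenum plates. A test of whether the difference between sides was itself different in the jejunum called 0 of 12440 genes with edgeR (smallest adjusted p = 0.696; 874 genes at an unadjusted p under 0.05), and DESeq2 called 505, 397 of them with a more positive log2 fold change in the jejunum. The jejunum arm is 1 plate, so the spread in this test comes from the 3 duodenum plates alone, neither count says anything of the tissue, and tissue and plate cannot be told apart.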

How the data were processed

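The BD Precise WTA kit was used to make libraries of polyadenylated RNA, 1 sorted cell per well, 92 sorted wells and 4 empty wells per plate, per the labels' protocols. The authors deposited whole-number counts per gene and cell. The submitters' processing notes list mm10, bcl2fastq 2.17.1.14, cutadapt 1.10, Bowtie2 2.2.8, STAR 2.5.3a, UMI-tools 0.4.4 and HTSeq 0.6.1, with no role or order, so whether counts are molecules or reads with PCR copies is not known, and intervals cover counting error only. The table held 29161 genes and 290 of 368 sorted cells; the filter behind these cells is not given in the sources used here.

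Column names carry a well and an experiment number, which was matched to the pool number of the sample titles; 0 columns stayed unassigned. Well positions recur by design: 88 of 92 were used in at least 2 plates, and no 2 columns were identical. Single cells held 202711 to 2312044 counts, and no doublet caller was run. Gene positions are from GENCODE M21.

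Counts were summed per plate and side (9499133 to 31166465 counts), filtered with filterByExpr, scaled by TMM and tested with the quasi-likelihood test of edgeR 4.0.16 (R 4.3.3), with the plate as a block, because both sides come from the same plate. Chgb stayed in the totals and left the test. The scripts were tested on simulated data. Alternatives used limma 3.58.1 (pseudocount 10 CPM), DESeq2 1.42.0, other limits and left-out cells or plates. The sides and the 24 gene lists (636 genes, 14 not in the table) were chosen with earlier results of these data known. Named are up to 4 called genes per list with 1 sign in all plates, by fold change, or else its 2 most abundant members; outside the lists the 8 largest called changes per direction with at least 50 CPM; and 12 marker genes in any case.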

Additional observations from a re-analysis of the deposited data

Results flagged for a closer look

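For 86 named genes, the log2 ratio of Chgb-high to Chgb-low CPM (1 CPM added to each) was examined over the 4 plates for a plate far from the other three, which by chance is met in about 1 of 20 genes; 5 genes met it. Cplx1 had a ratio of 1.63 in duodenum replicate 1 and 6.11 to 6.35 in the others. Fosb had 1.68 in duodenum replicate 3 and 2.69 to 2.84 in the others. Cdkn1a had -4.08 in jejunum replicate 1 and -1.81 to -1.40 in the others. Cox7b had -1.70 in duodenum replicate 1 and -0.70 to -0.52 in the others. Ramp3 had 6.49 in jejunum replicate 1 and 6.0 to 6.08 in the others. All 5 kept their direction in each plate.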

How the results depend on the processing

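Direction held for most named genes: over 86 genes and 18 alternatives, 1038 values kept their direction and side of the threshold, 480 lost the call, 7 gained it and 9 changed sign. Without the replicate block of the plate, 360 genes were called, 177 higher and 183 lower, against 515, 198 and 317 with it. DESeq2 called 2544 (1399 higher, 1145 lower). Weighting cells equally called 783, 546 of them higher. A single limit of 5000 CPM called 304 (110 higher, 194 lower). Leaving out 1 plate gave 11 to 249 calls, 8 to 74 higher and 2 to 175 lower; with 3 plates, fewer samples enter. Without Chgb-low cells of at least 5000 CPM of goblet and Paneth RNA, 98 genes were called (22 higher, 76 lower), and without those of at least 20000 CPM, added after the data had been seen, 241 (88 higher, 153 lower). Without Tph1 cells, 13 were called (6 higher, 7 lower). The cause of these shifts was not tested. The sign changed for Neurog3 (0.030 with equal cell weights and 0.055 without the cells at 20000 CPM), for Spink4, Defa17 and Defa24 (0.33, 0.042 and 1.29 without the cells at 5000 CPM) and for Gcg, Gip and Cck (-0.46, -0.62 and -0.61 without peptide hormone cells), which follows from leaving cells out by these very genes, and for Ffar2 (-0.070 without Tph1 cells). For the difference between jejunum and duodenum, DESeq2 called 505 genes, edgeR 0 under each other setting run, with 1 jejunum plate. Other size factors, no filter on low counts, thinning, the removal of Chgb, limits of 20000 and 1000 CPM, and leaving out Chgb-low cells with a peptide hormone (also added after the data had been seen) gave 403 to 557 calls.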

Other observations

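Beyond ribosomal proteins, other genes that work with the ribosome were examined. Of 23 translation factor, nascent chain and small nucleolar host genes, gathered after the calls had been seen and so no independent evidence, 16 were lower in Chgb-high cells and 0 higher, against 2.55% of all genes tested that were lower. The 23 genes do not hold every host gene tested. Among all 14 Snhg, Gas5 and Zfas1 genes tested, 4 were lower. Eef1b2, of the elongation factor complex, changed by -2.73 ± 0.21 (edgeR, adjusted p = 0.00637), and Eef1a1, which brings transfer RNA to the ribosome, by -2.10 ± 0.22 (adjusted p = 0.00889). The host transcripts Gas5 and Zfas1 changed by -2.62 ± 0.17 and -2.94 ± 0.22 (adjusted p = 0.00409 and 0.00637). Pabpc1 and Eif4a2 did not pass, at 0.23 and -0.14. The unscaled CPM of Eif4a2 was lower in Chgb-high cells in 1 plate only.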
